A study of Mus musculus with 16 samples.

Results

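The S100 proteins are small calcium-binding proteins with paired EF-hand motifs, and 9 of their genes were followed here through 5 states of mouse hepatic stellate cells: S100a1, S100a4, S100a6, S100a8, S100a9, S100a10, S100a11, S100a13 and S100a16. Only probe sets annotated to a single gene symbol counted, and where a gene had several the one with the largest average over the 16 arrays stood for it. By this rule 8 of the 9 genes had a value, out of 18193 genes on the array with such a probe set. The probe set of S100a11 is shared by 3 symbols, namely S100a11, S100a11-ps and Gm12854, so S100a11 was not analysed here. Of the 8 genes, 7 reached a log2 value of 5 on at least 2 arrays and were tested, out of 7823 tested genes in all. S100a9 stayed below that level on all 16 arrays.

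Most S100 proteins form dimers, change shape when calcium binds and then dock to target proteins such as annexins and myosin, and several are also secreted. S100A8 and S100A9 pair to form calprotectin, a metal-binding protein of neutrophils and monocytes that can signal through TLR4 and RAGE. Stellate cells store retinoids in the healthy liver and turn into contractile, matrix-producing myofibroblasts after injury, and S100A4, also called fibroblast-specific protein, is widely used as a marker of fibroblasts and of some macrophages.

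Each array held stellate cell RNA from male Balb/c mice aged 8 to 10 weeks, enriched by density centrifugation and then depleted of macrophages through the surface antigen that Adgre1 encodes. The coculture group (2 arrays) was kept for 5 days in 10% fetal bovine serum opposite Kupffer cells (liver macrophages) in a transwell insert, without contact, and the culture group (3 arrays) was kept in the same way without them. The bile duct ligation group (3 arrays) came from mice with the common bile duct tied for 15 days, and the CCl4 group (3 arrays) from mice given 4 intraperitoneal injections of carbon tetrachloride at 0.5 µl per g body weight. The quiescent group (5 arrays) came from normal mice. Ligation, CCl4 and quiescent cells were plated for 24 h before lysis, so none of these groups is free of culture, and culture and coculture differ from them in time on plastic too. The design text lists 3 coculture samples, and 2 of them are analysed here. The labels do not say whether samples came from separate animals or from pools, so the p-values rest on a spread between arrays that may be technical.

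Levels below are on the log2 scale of the deposited table, for which the submitters' processing notes name GCRMA. The median over all probe sets lay between 2.00 and 2.06 on the 16 arrays, so levels near 2 are background and a fold that starts there depends on the background estimate. Pairs of arrays within a group correlated at 0.929 to 0.983 over the tested genes, and pairs from different groups at 0.773 to 0.969. Of 9 stellate markers, 7 or 8 averaged log2 5 or more in every group, including Des, Pdgfrb, Reln and Acta2. Gfap was below that level in every group.

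The groups differed in most of these genes. In coculture against quiescent cells limma called 6 of the 7 tested S100 genes at an adjusted p under 0.05, where it called 38.7% of all tested genes. S100a1, S100a4, S100a6, S100a8 and S100a13 rose and S100a10 fell. In culture against quiescent cells it called 4, where the share over all genes was 42.1%, and S100a1, S100a4, S100a6 and S100a13 rose. Coculture against culture gave 2 calls beside 15.4% of all genes, a higher S100a8 and a lower S100a10.

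After bile duct ligation 4 of the 7 were called against quiescent cells, where 16.9% of all genes were, and after CCl4 4 of the 7, where 22% were. In both injuries S100a4, S100a6 and S100a16 rose and S100a10 fell. The comparisons with quiescent cells share the same 5 arrays. Ligation against CCl4 gave 1 call among the 7, S100a4, where limma called 0.166% of all genes.

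Across the other pairs of groups, 5 were called in coculture against ligation (29.6% of all genes), 6 in coculture against CCl4 (21.9%), 4 in culture against ligation (45.6%) and 6 in culture against CCl4 (43%). All 7 were called in the F test over the 5 groups, as were 63% of all genes. S100a8 entered the tests only through its 2 coculture arrays and S100a16 only through arrays of the 2 injuries. Those genes had to differ there. S100a4 reached log2 5 on culture, ligation and CCl4 arrays alone, and S100a1 on coculture, culture and CCl4 arrays alone. Both thus also entered the tests through groups in which they are high. The counts support nothing by themselves. In bulk RNA, fewer cells of a type and less RNA per cell cannot be told apart.

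**Figure D1:**
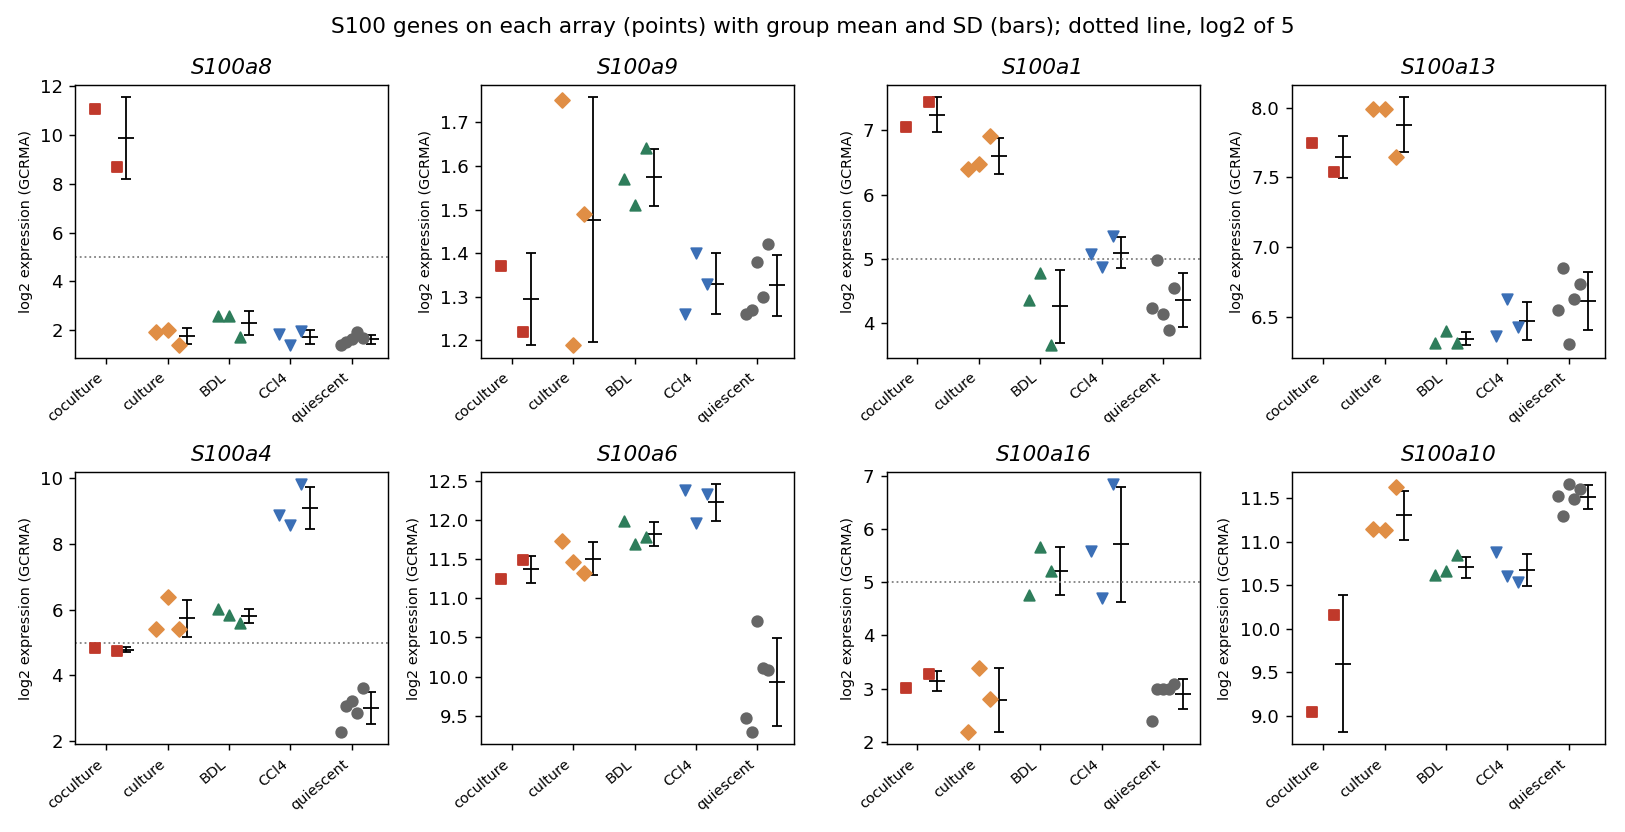
Log2 expression (GCRMA) of 8 S100 genes on each of the 16 arrays, by group. Points are arrays, bars the group mean and SD, and the dotted line marks log2 5, with a separate vertical axis for each gene. S100a8 is high on the 2 coculture arrays alone, S100a9 is at background throughout, and S100a4 is highest after CCl4.

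**Figure D2:**
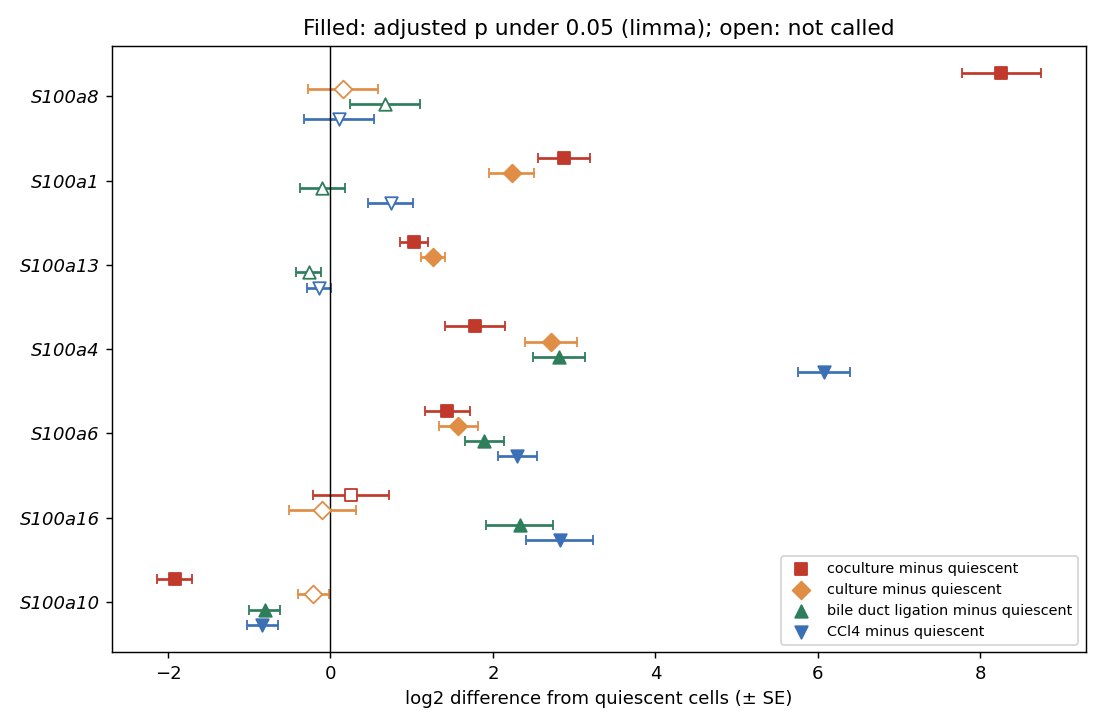
Log2 difference from quiescent cells with its standard error for the 7 tested S100 genes in each activated state, from limma. Filled symbols have an adjusted p under 0.05. S100a6 and S100a4 lie to the right in all 4 states, S100a16 in the 2 injuries, and S100a1 and S100a13 in culture and coculture.

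The calprotectin genes S100a8 and S100a9 are neighbours on chromosome 3, and their promoters are shown because the genes of this pair read differently in coculture. The 300-base windows around the RefSeq start sites (build GRCm38.p6, an assembly of another strain than Balb/c) are chr3:90668821-90669120 on the plus strand for S100a8 and chr3:90695672-90695971 on the minus strand for S100a9, written in the direction of the gene. Capitals mark matches to the searched motifs.
S100a8: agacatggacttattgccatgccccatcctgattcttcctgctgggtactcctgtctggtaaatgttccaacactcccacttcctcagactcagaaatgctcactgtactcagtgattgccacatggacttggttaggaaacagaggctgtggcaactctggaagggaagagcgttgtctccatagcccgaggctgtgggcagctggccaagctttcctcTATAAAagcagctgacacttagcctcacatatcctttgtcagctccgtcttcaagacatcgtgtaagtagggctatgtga
S100a9: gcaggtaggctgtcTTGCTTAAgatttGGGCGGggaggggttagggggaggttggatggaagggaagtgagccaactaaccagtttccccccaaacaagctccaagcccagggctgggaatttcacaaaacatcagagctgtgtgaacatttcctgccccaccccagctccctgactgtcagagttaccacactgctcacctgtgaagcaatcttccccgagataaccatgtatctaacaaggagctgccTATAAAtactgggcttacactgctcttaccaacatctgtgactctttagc
Both strands of each window were searched for the TATA box letters TATAAA, the C/EBP motif TTGCNNAA and the AP-1 motif TGANTCA. The STAT motif TTCNNNGAA, the GC box GGGCGG, the hypoxia-inducible factor core ACGTG and an NF-kB motif were searched too. The S100a8 window holds TATAAA 30 bases before the start. The S100a9 window holds TTGCTTAA 236 bases before the start, GGGCGG 223 bases before it and TATAAA at the start itself. Of 32851 RefSeq promoter windows of this length, 13.6% hold TATAAA, 10.8% the C/EBP letters and 35.7% GGGCGG. Motif letters for NF-kB (1.63% of windows), STAT (8.3%), AP-1 (7.81%) and the hypoxia core (19.6%) were not found in these windows.

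S100a8 was at 11.06 and 8.70 in coculture replicates 2 and 3. Its levels were 1.93, 1.99 and 1.38 in culture, 2.58, 2.60 and 1.71 after ligation, 1.85, 1.41 and 1.95 after CCl4, and 1.38, 1.52, 1.62, 1.92 and 1.67 in quiescent cells. Only the coculture arrays stood above background, and they did not overlap any other group. The gene was higher in coculture than in culture by 8.11 ± 0.54 (log2 difference ± SE, adjusted p = 3.57e-07, limma), the third largest of 1205 called differences, and higher than in quiescent cells by 8.26 ± 0.49 (adjusted p = 3.22e-08), the largest of 3031. As the other groups are at background, the fold these figures correspond to rests on the background estimate. S100a8 was tested only because its coculture arrays passed the filter, so these p-values and ranks support nothing by themselves. The gene was not called in culture (0.15 ± 0.43), ligation (0.67 ± 0.43) or CCl4 (0.11 ± 0.43) against quiescent cells.

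S100a9, its partner, was at 1.37 and 1.22 in coculture, 1.75, 1.19 and 1.49 in culture, 1.57, 1.51 and 1.64 after ligation, 1.26, 1.40 and 1.33 after CCl4, and 1.26 to 1.42 in quiescent cells. No array left background, and the coculture range overlapped those of culture and quiescent cells. With no filter on low values coculture differed from culture by -0.18 ± 0.13 (adjusted p = 0.539, limma) and from quiescent cells by -0.03 ± 0.12 (adjusted p = 0.921). A probe set near background bounds the level only as far as its probes detect the transcript. Of the S100 family genes outside the 9, 5 of 8 had a value (S100a3, S100a5, S100a14, S100b and S100g), and all lay between 0.78 and 2.14.

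Genes of the epidermal differentiation complex, which encode proteins of the skin barrier, lie between S100a9 and S100a11 on chromosome 3. Of 45 listed, 33 had a value and 2 passed the filter, Crct1 and Sprr1a. Both reached log2 5 on coculture and CCl4 arrays alone, so they entered the tests through the groups in which they are high, and their number supports nothing. Crct1 stood at 11.41 and 9.08 in coculture, 4.30, 4.95 and 2.71 in culture and 2.26 to 3.34 in quiescent cells. It was higher in coculture than in quiescent cells by 7.49 ± 0.69 (adjusted p = 1.96e-06, limma) and than in culture by 6.26 ± 0.76 (adjusted p = 9.3e-05). Across the 16 arrays Crct1 and S100a8 correlated at r = 0.93, a description in which the points share their groups. After CCl4 both neighbours were called too, Crct1 by 2.12 ± 0.61 (adjusted p = 0.0212, lost without CCl4 replicate 1 at 1.51) and Sprr1a by 3.58 ± 0.77 (adjusted p = 0.00412), where S100a8 was not.

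Sprr1a, a precursor of the cornified envelope, was at 8.38 in coculture replicate 2 and at 3.24 in replicate 3, against 1.74 to 2.24 in culture and 1.35 to 2.09 in quiescent cells. Its difference from quiescent cells was 4.04 ± 0.88 (adjusted p = 0.00244, limma), but 1.47 without coculture replicate 2 (adjusted p = 0.0723) and 6.60 without replicate 3. That from culture was 3.74 ± 0.96 (adjusted p = 0.0166), but 1.17 without coculture replicate 2 (adjusted p = 0.312) and 6.31 without replicate 3, and it was not called with both groups fitted alone (adjusted p = 0.153). Ivl, which encodes involucrin, and Sprr2h, picked after its values were seen, were not tested. They read 7.43 and 8.88 on coculture replicate 2 and 2.42 and 3.49 on replicate 3. Every one of these 4 genes and S100a8 was higher on replicate 2 than on replicate 3.

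Markers of other cells were set beside S100a8. Of 11 neutrophil markers with a value, 0 averaged log2 5 in any group, and their summed log2 level was 20 to 22.7 per coculture array, 14 to 17.7 in culture and 16.4 to 18.3 in quiescent cells. Mmp8, a collagenase stored in neutrophil granules, was at 6.29 and 3.66 in coculture, 1.32 to 1.94 in culture and 1.34 to 1.82 in quiescent cells. It made up the largest part of the higher coculture sum. The other markers stayed at or below 3.21 on the coculture arrays, and Il1r2, which gave that value, reached 3.35 in quiescent cells. Ly6g, Retnlg and Stfa1 had no probe set of their own.

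Of 16 macrophage markers, 2 averaged log2 5 or more in coculture (Cd68 and Lyz2), 0 in culture and 1 in quiescent cells. Cd68 was called higher in coculture than in culture (4.08 ± 0.63) but not than in quiescent cells (0.8 ± 0.58). Lyz2 was called higher in coculture than in quiescent cells (3.47 ± 0.72) but not than in culture (0.54 ± 0.78), where it averaged 4.94. Their summed level was 38.2 to 42.0 in coculture, 29.9 to 34.6 in culture and 32.4 to 35.4 in quiescent cells. Adgre1, which encodes the antigen used for depletion, was at 1.77 and 1.33 in coculture. Cd14 was at 4.74 and 4.11 there, against 1.77 to 2.44 in culture and 3.02 to 6.06 after CCl4, where S100a8 was at background. Of 6 keratinocyte markers Krt10 alone averaged log2 5 or more in coculture, as it did in culture and in quiescent cells, and the sums were 15.4 to 20.3 in coculture, 14 to 14.8 in culture and 13.8 to 15.4 in quiescent cells. Ivl, at 7.43 and 2.42 in coculture, and Lor count in these sums and also among the epidermal differentiation complex genes above. Krt5, Krt14 and Krt1 averaged 2.15, 1.2 and 1.23 in coculture, against 2.19, 1.42 and 1.1 in quiescent cells. Of 5 cholangiocyte markers Krt19 averaged log2 5 or more in coculture and none did elsewhere. Their sums were 13.6 to 13.7 in coculture, 8.8 to 10.8 in culture and 7.7 to 10.1 in quiescent cells. Krt19, a keratin of bile duct cells, was higher in coculture than in culture by 3.27 ± 0.42 (adjusted p = 0.000138, limma) and than in quiescent cells by 4.02 ± 0.38 (adjusted p = 2.38e-06), while Epcam, Krt7, Sox9 and Cldn4 stayed below log2 3 on every array. Krt19 reached log2 5 on the coculture arrays alone and entered the tests through them, so these p-values support nothing by themselves. The part of other cells in the S100a8 result was not tested.

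**Figure D3:**
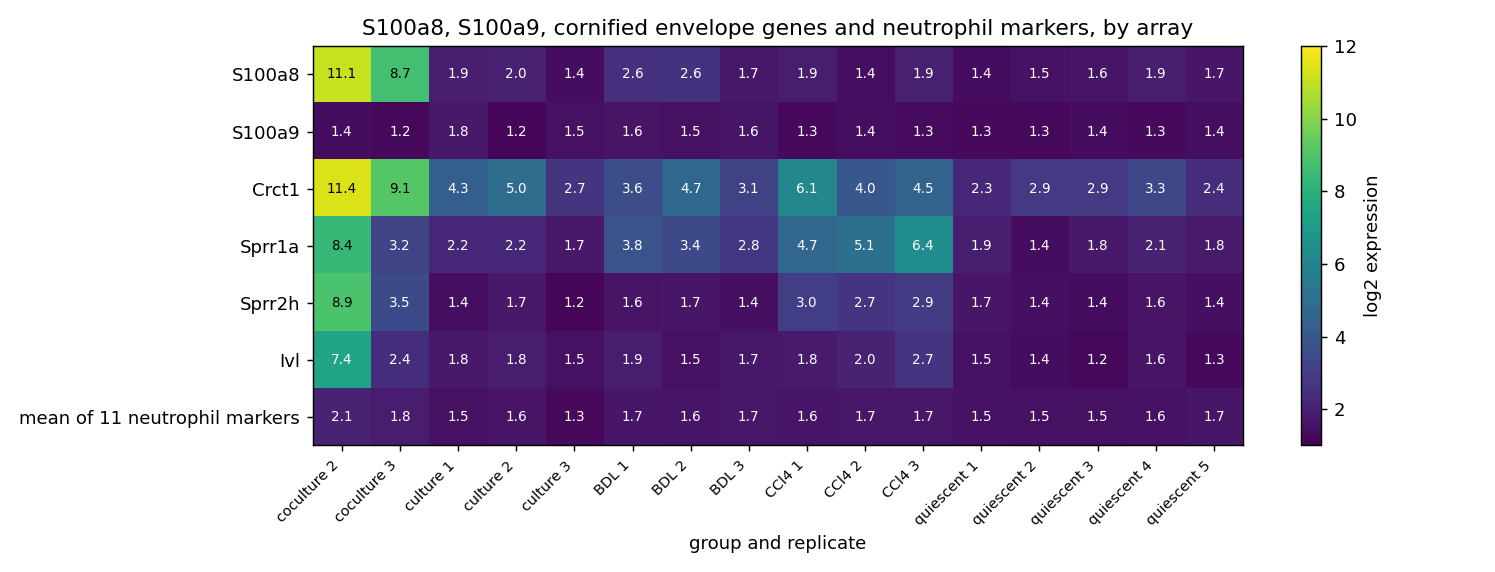
Log2 expression on each array (columns, grouped by condition and replicate) of S100a8, S100a9, 4 epidermal differentiation complex genes and the mean of 11 neutrophil markers. Colour and printed numbers give the log2 level. S100a8 and Crct1 are high on both coculture arrays, while S100a9 and the neutrophil mean stay near background in every column.

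S100a1 and S100a13 are adjacent genes that run in opposite directions, with 104 bases between their RefSeq start sites. S100A1 regulates calcium pumps and channels in muscle, and S100A13 takes part in the release of proteins that lack a signal peptide, such as FGF1 and interleukin 1 alpha. The shared stretch of their promoter windows, chr3:90514281-90514484 (GRCm38.p6, plus strand), is shown because both genes rose in the same groups.
S100a1 and S100a13: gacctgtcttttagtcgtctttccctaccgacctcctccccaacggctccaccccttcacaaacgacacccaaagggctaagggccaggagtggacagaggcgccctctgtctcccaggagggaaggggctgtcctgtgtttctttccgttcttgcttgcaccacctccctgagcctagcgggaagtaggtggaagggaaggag
None of the searched motifs is in these 204 bases.

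S100a1 was at 7.05 and 7.43 in coculture, 6.4, 6.47 and 6.91 in culture, 4.36, 4.78 and 3.66 after ligation, 5.07, 4.87 and 5.35 after CCl4, and 4.24, 4.98, 4.14, 3.90 and 4.55 in quiescent cells. Both groups kept for 5 days stood above all others without overlap. S100a1 was higher than in quiescent cells by 2.88 ± 0.32 in coculture (adjusted p = 1.01e-05, limma) and by 2.23 ± 0.28 in culture (adjusted p = 2.32e-05). The gene reached log2 5 on coculture, culture and CCl4 arrays alone and entered the tests through them. Its p-values against quiescent or ligation cells thus support nothing by themselves. Coculture and culture did not overlap but were not called against each other (0.65 ± 0.35, 95% interval -0.09 to 1.39, adjusted p = 0.231). Ligation differed from quiescent by -0.10 ± 0.28 (adjusted p = 0.853) and CCl4 by 0.74 ± 0.28 (adjusted p = 0.0712), the second of which was called without quiescent replicate 2 (0.89, adjusted p = 0.0295) or without ligation replicate 3 (0.74, adjusted p = 0.0476). A dimmer probe set of S100a1 failed the filter and read 4.46 ± 0.33 in coculture (SD, n = 2), 3.59 ± 0.38 in culture (n = 3) and 1.89 ± 0.20 in quiescent cells (n = 5). It read 1.9 ± 0.11 after ligation and 1.94 ± 0.14 after CCl4 (SD, n = 3 each). With the mean of all S100a1 probe sets CCl4 differed from quiescent cells by 0.4 (adjusted p = 0.216, limma).

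S100a13 was at 7.75 and 7.54 in coculture, 7.99, 7.99 and 7.65 in culture, 6.32, 6.4 and 6.32 after ligation, 6.37, 6.63 and 6.43 after CCl4, and 6.55, 6.85, 6.31, 6.63 and 6.74 in quiescent cells. Again both groups kept for 5 days lay above the rest without overlap. Against quiescent cells it was higher by 1.03 ± 0.17 in coculture (adjusted p = 0.000318, limma) and by 1.26 ± 0.15 in culture (adjusted p = 1.39e-05). It was not called after ligation (-0.27 ± 0.15, 95% interval -0.59 to 0.04) or CCl4 (-0.14 ± 0.15, -0.46 to 0.17), nor between coculture and culture (-0.23 ± 0.19, -0.63 to 0.16). Both genes were also called higher in coculture and in culture than in each injury, by 1.17 to 1.53 for S100a13 and by 1.49 to 2.98 for S100a1. Over the 16 arrays the levels of S100a1 and S100a13 correlated at r = 0.87, as a description across points that share their groups.

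**Figure D4:**
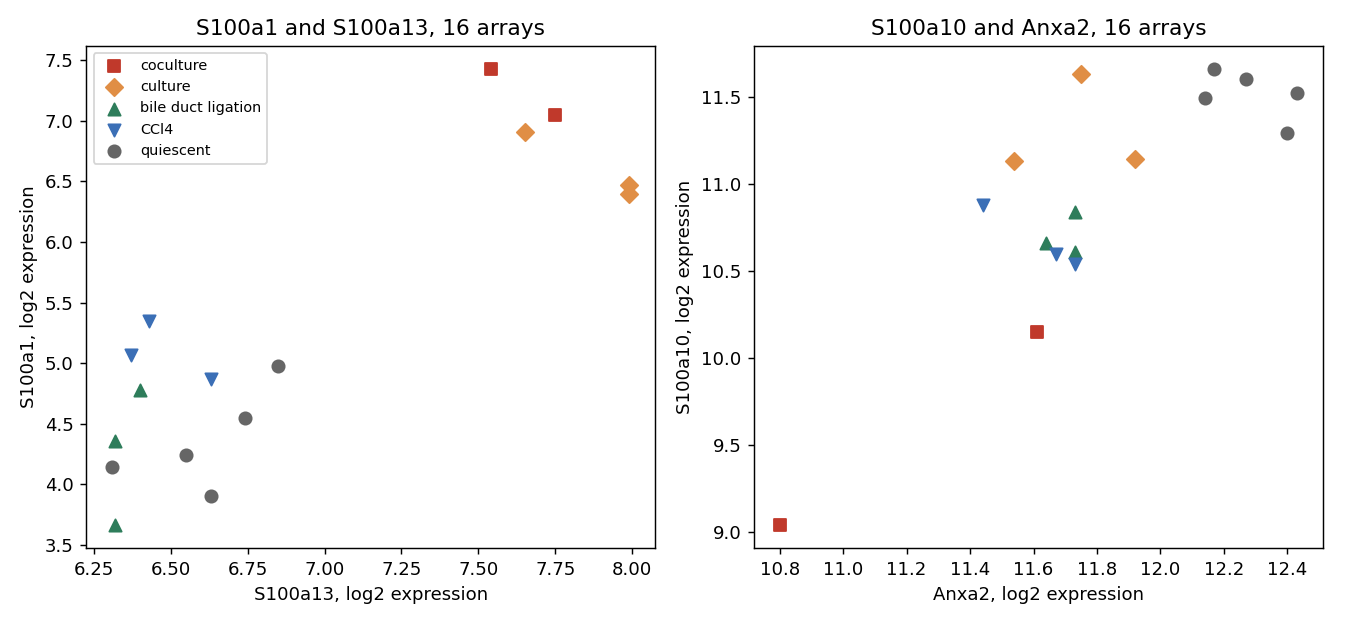
Log2 expression of S100a1 against S100a13 (left) and of S100a10 against Anxa2 (right), with 1 point per array and group shown by symbol. Coculture and culture arrays lie at the upper right of the left plot, and coculture replicate 2 lies at the lower left of the right plot.

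S100a4 and S100a6 sit close together in the cluster and encode intracellular regulators of the cytoskeleton, S100A4 by binding non-muscle myosin and S100A6 (calcyclin) by binding CacyBP and annexins. The S100a4 promoter window, chr3:90603520-90603819 (GRCm38.p6, plus strand), is shown because this gene separated the injuries, and its capitals mark TATAAA 31 bases before the start.
S100a4: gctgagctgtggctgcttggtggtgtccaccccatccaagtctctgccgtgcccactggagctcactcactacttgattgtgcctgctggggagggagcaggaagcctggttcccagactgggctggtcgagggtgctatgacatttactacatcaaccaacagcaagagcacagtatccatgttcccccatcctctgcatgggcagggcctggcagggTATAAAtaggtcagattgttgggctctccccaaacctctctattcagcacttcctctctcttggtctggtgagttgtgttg
S100a4 was at 6.01, 5.85 and 5.59 after ligation and at 8.88, 8.57 and 9.82 after CCl4. Its levels were 4.84 and 4.74 in coculture, 5.42, 6.38 and 5.41 in culture, and 2.28, 3.07, 3.21, 2.87 and 3.62 in quiescent cells. Every activated array stood above every quiescent array, and the CCl4 arrays stood above all others.

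Against quiescent cells S100a4 rose by 6.08 ± 0.32 after CCl4 (adjusted p = 8.67e-09, limma), the seventh largest of 1719 called differences. It rose by 2.81 ± 0.32 after ligation (adjusted p = 2.87e-05), by 2.72 ± 0.32 in culture (adjusted p = 1.57e-05) and by 1.78 ± 0.37 in coculture (adjusted p = 0.00182). The quiescent levels of 2.28 to 3.62 are close to background, so these sizes and the rank depend on the background estimate. S100a4 reached log2 5 on culture, ligation and CCl4 arrays alone and entered the tests through them. Its p-values against quiescent cells thus support nothing by themselves. Ligation was lower than CCl4 by 3.27 on the log2 scale (-3.27 ± 0.36, adjusted p = 0.000426). S100a4 had the third smallest p of the 13 genes called between the injuries, 11 of which were lower after ligation. Culture did not differ from ligation by more than the spread (-0.08 ± 0.36, 95% interval -0.86 to 0.69), and coculture was not called against culture (-0.95 ± 0.41, adjusted p = 0.133). Coculture against ligation was not called either (-1.03 ± 0.41, adjusted p = 0.0683), but the same difference was called without quiescent replicate 1 (adjusted p = 0.0492), without CCl4 replicate 3 (adjusted p = 0.0489), with both groups fitted alone (adjusted p = 0.0257) and with 3 arrays left out at once (adjusted p = 0.0461).

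S100a6 was strongly expressed on every array. It was at 11.25 and 11.49 in coculture, 11.73, 11.47 and 11.32 in culture, 11.99, 11.70 and 11.78 after ligation, 12.39, 11.96 and 12.33 after CCl4, and 9.47, 9.29, 10.71, 10.11 and 10.08 in quiescent cells. All activated arrays exceeded all quiescent ones. The increases over quiescent cells were 1.44 ± 0.28 in coculture (adjusted p = 0.000942, limma), 1.57 ± 0.24 in culture (adjusted p = 0.000132), 1.89 ± 0.24 after ligation (adjusted p = 7.42e-05) and 2.30 ± 0.24 after CCl4 (adjusted p = 1.22e-05).

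Among the activated groups S100a6 was called only in culture against CCl4 (-0.72 ± 0.27, adjusted p = 0.0413). That call was lost without culture replicate 2 (-0.70) or 3 (-0.63), ligation replicate 3 (-0.72, adjusted p = 0.0504) or CCl4 replicate 1 (-0.64) or 3 (-0.67). Coculture against CCl4 (-0.85 ± 0.30, adjusted p = 0.0538) was called without quiescent replicate 1 (adjusted p = 0.0464), 2 (0.0306) or 3 (0.0173). S100a6 and S100a4 correlated at r = 0.87 over the 16 arrays, as a description.

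S100a16, a broadly expressed member, was raised after both injuries and low elsewhere. It was at 4.77, 5.67 and 5.22 after ligation and at 5.59, 4.70 and 6.85 after CCl4. The levels were 3.01 and 3.27 in coculture, 2.18, 3.38 and 2.80 in culture, and 2.39, 3.00, 2.99, 3.00 and 3.08 in quiescent cells. All arrays of both injuries lay above all other arrays. The gene rose over quiescent cells by 2.33 ± 0.41 after ligation (adjusted p = 0.000997, limma) and by 2.82 ± 0.41 after CCl4 (adjusted p = 0.000192), and a second probe set gave 2.78 ± 0.44 (adjusted p = 0.000517) and 3.35 ± 0.44 (adjusted p = 9.59e-05). Both probe sets passed the filter only through injury arrays, so these p-values support nothing by themselves. The injuries were not called against each other (-0.50 ± 0.45, 95% interval -1.46 to 0.47). Coculture (0.25 ± 0.47) and culture (-0.10 ± 0.41) were not called against quiescent cells.

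Markers of other liver cells moved with the injuries too. The 5 mesothelial markers (Msln, Upk3b, Lrrn4, Wt1 and Upk1b) had a summed log2 level of 12.1 to 16.8 per array after ligation and 16.4 to 27.3 after CCl4, against 7.2 to 9.0 in quiescent cells, and 0, 1 (Lrrn4) and 0 of them averaged log2 5 in these groups. The sums were 8.4 to 8.9 in coculture and 8.2 to 8.3 in culture, where S100a4 was also called. Upk1b, a urothelial and mesothelial membrane gene, was at 2.25, 2.82 and 2.23 after ligation, 4.08, 3.82 and 5.97 after CCl4 and 1.24 to 1.58 in quiescent cells. It correlated with S100a16 at r = 0.88 over the 16 arrays, as a description, and no r was taken for the other mesothelial markers. After ligation Upk3b averaged 1.33 against 1.2 in quiescent cells. Msln (2.74 against 1.72), Lrrn4 (4.11 against 1.41) and Wt1 (4.39 against 2.14) averaged higher there.

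The 6 hepatocyte markers summed to 22.1 to 26.5 after ligation, 26.3 to 43.1 after CCl4 and 9.6 to 14.6 in quiescent cells, with 1 (Alb), 4 (Alb, Apoa1, Ttr and Fgb) and 0 averaging log2 5. The 16 macrophage markers summed to 42.8 to 59.5 after ligation, 40.5 to 49.7 after CCl4 and 32.4 to 35.4 in quiescent cells, with 3 (Cd68, Lyz2 and Ctss), 3 (the same genes) and 1 averaging log2 5. CCl4 replicate 3 had the highest mesothelial and hepatocyte levels of all arrays and also the highest S100a4 and S100a16. Without that array the differences from quiescent cells after CCl4 were 5.72 for S100a4 (adjusted p = 1.13e-07, limma) and 2.25 for S100a16 (adjusted p = 0.00132), and S100a4 was still lower after ligation than after CCl4 (-2.91, adjusted p = 0.00354). Both p-values against quiescent cells carry the filter limit given above for these genes. The part of these cells in the S100a4 and S100a16 results was not tested.

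**Figure D5:**
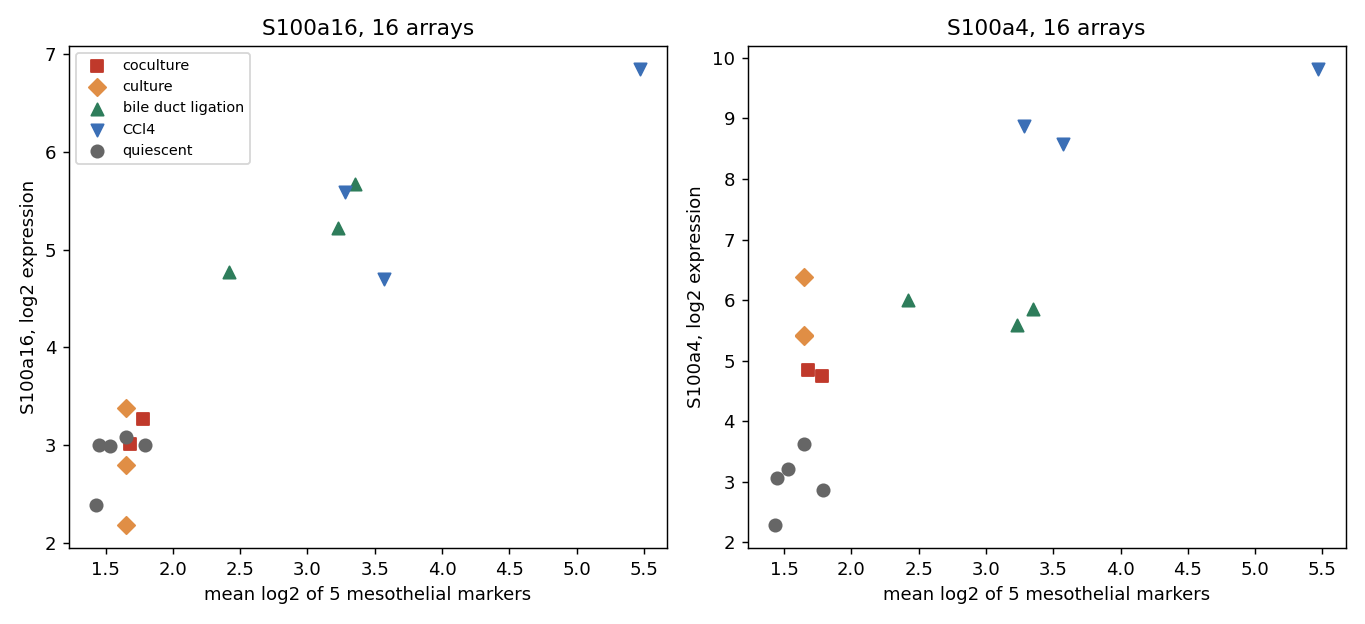
Log2 expression of S100a16 (left) and S100a4 (right) against the mean log2 level of 5 mesothelial markers, with 1 point per array and group shown by symbol. Ligation and CCl4 arrays lie to the right of all others, with CCl4 replicate 3 farthest right at an S100a16 level of 6.85, while culture arrays have raised S100a4 at a mesothelial level of 1.65.

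S100a10 encodes p11, which lacks calcium binding and holds annexin A2 in a complex at the plasma membrane, where the pair binds plasminogen and its activators. It was the one tested S100 gene that fell. It was at 9.04 and 10.15 in coculture, 11.14, 11.13 and 11.63 in culture, 10.61, 10.66 and 10.84 after ligation, 10.88, 10.60 and 10.54 after CCl4, and 11.52, 11.29, 11.66, 11.49 and 11.60 in quiescent cells. Coculture lay below every other group, both injuries lay between, and culture overlapped the quiescent range.

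S100a10 fell by 1.92 in coculture against quiescent cells (-1.92 ± 0.22, adjusted p = 1.49e-05, limma), and coculture against culture gave -1.71 ± 0.24 (adjusted p = 0.000284). Ligation gave -0.81 ± 0.19 (adjusted p = 0.00891) and CCl4 -0.84 ± 0.19 (adjusted p = 0.00639) against quiescent cells, while culture was not called (-0.21 ± 0.19, adjusted p = 0.399) except with the mean of all S100a10 probe sets (-0.72, adjusted p = 0.00903). A second probe set gave -2.22, -1.89, -1.05 and -0.97 for the same 4 called differences. Coculture was also lower than ligation (-1.11 ± 0.24) and CCl4 (-1.08 ± 0.24), but without coculture replicate 2 these became -0.55 (adjusted p = 0.0686) and -0.52 (adjusted p = 0.0979), and without replicate 3 the second became -1.63. Culture exceeded ligation by 0.60 ± 0.22 and CCl4 by 0.63 ± 0.22. Both calls were lost without culture replicate 3 (0.43 and 0.46), the first also without ligation replicate 1 (0.55) or 2 (0.58) and the second without CCl4 replicate 2 (0.59) or 3 (0.56).

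Some stellate markers moved with S100a10. Reln, which encodes the matrix protein reelin, differed by -3.25 ± 0.36 in coculture (adjusted p = 9.93e-06, limma), -1.13 ± 0.31 after ligation (adjusted p = 0.021) and -1.40 ± 0.31 after CCl4 (adjusted p = 0.00537) against quiescent cells, and by -2.46 ± 0.39 in coculture against culture (adjusted p = 0.000684). Pdgfrb, the receptor for platelet-derived growth factor, was lower in coculture (-0.66 ± 0.20) and after CCl4 (-1.01 ± 0.17) than in quiescent cells, and lower in coculture than in culture (-0.76 ± 0.22). It was not called after ligation (-0.36 ± 0.17). Acta2, Col1a1 and Lox were higher than in quiescent cells in every activated group, and Des and Hand2 were called in none. Lrat was higher than in quiescent cells in culture (4.14 ± 1.04, adjusted p = 0.00515, limma). It was not called in coculture (2.37 ± 1.19), after ligation (-0.84 ± 1.04) or after CCl4 (-1.81 ± 1.04). Gfap was not tested. The summed level of the 9 markers was 75.8 to 82.9 in coculture, 83.8 to 86.7 in culture, 79.0 to 85.4 after ligation, 73.8 to 77.6 after CCl4 and 66.7 to 74.6 in quiescent cells. Their part in the S100a10 result was not tested.

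Anxa2, the annexin that binds p11, was at 10.80 and 11.61 in coculture, 11.92, 11.54 and 11.75 in culture, 11.73, 11.64 and 11.73 after ligation, 11.44, 11.67 and 11.73 after CCl4, and 12.14 to 12.43 in quiescent cells. Each activated array lay below each quiescent array. The difference from quiescent cells was -1.08 ± 0.17 in coculture (adjusted p = 0.000178, limma, and -0.67 without coculture replicate 2), -0.54 ± 0.14 in culture (adjusted p = 0.00762), -0.58 ± 0.14 after ligation (adjusted p = 0.0119) and -0.67 ± 0.14 after CCl4 (adjusted p = 0.00455). The culture call was lost without culture replicate 2 (-0.44, adjusted p = 0.0503) and the ligation call without ligation replicate 2 (-0.55, adjusted p = 0.0513). With the mean of all its probe sets Anxa2 was not called in culture (-0.22) or after CCl4 (-0.31). S100a10 and Anxa2 correlated at r = 0.83 over the 16 arrays, as a description.

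Ahnak, the giant scaffold protein gene whose product binds the p11 and annexin A2 complex, fell by 2.53 in coculture against quiescent cells (-2.53 ± 0.21, adjusted p = 1.4e-06, limma) and differed by -1.60 ± 0.23 from culture (adjusted p = 0.000364). Plau, the urokinase plasminogen activator gene, was higher in coculture than in culture by 3.41 ± 0.51 (adjusted p = 0.000429). Its coculture level, 6.54 as a group mean, stood beside 3.12 in culture and 5.65 in quiescent cells. Anxa1, an annexin with anti-inflammatory roles, was lower in coculture than in culture (-1.04 ± 0.19, adjusted p = 0.00205), a call lost without coculture replicate 2 (-0.76, adjusted p = 0.0571).

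Anxa6 was higher in coculture than in culture (0.92 ± 0.26, adjusted p = 0.0246), a call lost without culture replicate 2 (0.92) or 3 (0.87) or coculture replicate 2 (0.73), and with the mean of all its probe sets (0.62, adjusted p = 0.188). Iqgap1, a scaffold of the actin cytoskeleton, was lower in coculture than in quiescent cells (-0.68 ± 0.23, adjusted p = 0.0315), which was lost without quiescent replicate 1 (-0.59) or 2 (-0.54) or either coculture array (-0.71 and -0.65), with the mean of all its probe sets (-0.25, adjusted p = 0.131) and with its second probe set (-0.53, adjusted p = 0.0673). Over the whole list of 22 binding partners, 14 were tested. In coculture against quiescent cells (38.7% of all genes called) 0 were higher and 3 lower, with a median of -0.18 against -0.04 over all genes, and in coculture against culture (15.4%) 2 were higher and 2 lower, with a median of -0.08 against 0.01.

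Of those 14 partners, 1 (Anxa1) was higher and 6 lower in culture against quiescent cells, near the 42.1% of all genes called there, with a median of -0.40 against -0.05 over all genes. After ligation (16.9% of all genes) 1 was higher (Anxa6) and 1 lower (Anxa2), with a median of -0.05. After CCl4 (22%) 1 was higher (Plau) and 2 lower (Anxa2 and Ahnak), with a median of 0.11. The calls of Anxa6, of Plau and of Ahnak in the injuries were lost under some settings, Anxa6 with its probe sets averaged (0.52) and without ligation replicate 2 (0.73) or 3 (0.72), Plau without CCl4 replicate 1 (1.52), and Ahnak without CCl4 replicate 1 (-0.47) or 2 (-0.57) or quiescent replicate 1 (-0.47) or 2 (-0.51), and with no filter, no trend, centred arrays or both groups fitted alone (-0.58 to -0.52). Between ligation and CCl4 limma called 0 of the 14.

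Receptors for secreted S100 proteins were read in the same fit. Ager, which encodes RAGE, stayed between 1.99 and 3.08 on all arrays and was not tested. Tlr4 averaged 8.63 ± 0.23 in coculture (SD, n = 2), 8.78 ± 0.13 in culture, 7.13 ± 0.56 after ligation, 7.82 ± 0.13 after CCl4 (n = 3 each) and 8.30 ± 0.52 in quiescent cells (n = 5). It was lower after ligation than in quiescent cells (-1.17 ± 0.27, adjusted p = 0.00745, limma), which was lost without ligation replicate 1 (-0.85, adjusted p = 0.0624). It was not called after CCl4 (-0.48 ± 0.27) unless quiescent replicate 4 was left out (-0.70, adjusted p = 0.0269), nor in coculture (0.33 ± 0.31) or culture (0.48 ± 0.27), although its second probe set was called in coculture (1.37) and culture (1.19).

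Ly96, which encodes the TLR4 partner MD-2, was higher in coculture than in quiescent cells by 1.14 ± 0.21 (adjusted p = 0.000685, limma), and Bsg, which encodes the S100A9 receptor basigin, by 0.84 ± 0.14 (adjusted p = 0.000342). Egfr was higher by 0.89 ± 0.26 (adjusted p = 0.0137), a call lost without coculture replicate 2 (0.71, adjusted p = 0.146), with its second probe set (0.54, adjusted p = 0.238) and with both groups fitted alone (adjusted p = 0.0565). Alcam, a cell adhesion receptor, was lower in coculture than in culture by 3.65 on the log2 scale (-3.65 ± 0.35, adjusted p = 1.39e-05), with group means of 4.98 in coculture, 8.64 in culture and 5.67 in quiescent cells. In all, 3 of 6 tested receptor genes were higher and 0 lower in coculture against quiescent cells, with 38.7% of all genes called there (median 0.80, all genes -0.04), and 2 and 0 in culture, with 42.1% called (Bsg and Alcam, median 0.44). In coculture against culture Ly96 was the 1 receptor gene called higher (0.78 ± 0.23, adjusted p = 0.0291), with 15.4% of all genes called, which was lost without coculture replicate 2 (0.49) or culture replicate 1 (0.67) or 3 (0.73), with array weights (0.60), with no filter (adjusted p = 0.0523) and with both groups fitted alone (adjusted p = 0.135). After ligation (16.9% of all genes) 2 were higher (Cd36 and Egfr) and 2 lower (Tlr4 and Ly96), with a median of 0.21, and after CCl4 (22%) 3 were higher (Cd36, Alcam and Egfr) and 0 lower, with a median of 0.42. Cd36 is named here after its values were seen. It reached log2 5 on ligation arrays alone and entered the tests through them, so its place in the ligation count supports nothing. Leaving out ligation replicate 3 ended the ligation calls of Egfr (0.80) and Ly96 (-0.60), leaving out ligation replicate 1 that of Egfr (0.77), and leaving out any one CCl4 array that of Alcam after CCl4 (0.84 to 0.97), as did leaving out quiescent replicate 2, 3 or 5 (0.84 to 0.89). Alcam after CCl4 was 0.10 with its second probe set (adjusted p = 0.91, limma) and 0.27 with the mean of all its probe sets (adjusted p = 0.509), and Egfr after ligation was 0.79 with its second probe set (adjusted p = 0.09).

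The 3 tested genes whose levels over the 16 arrays were most like each member were taken by Pearson's r, as a description. For S100a8 they were Prl8a9 (r = 0.989), Myct1 (0.972) and the keratin gene Krt19 (0.941), which averaged 7.20 ± 0.54, 5.96 ± 0.90 and 5.6 ± 0.06 in coculture (SD, n = 2) and 1.23 ± 0.15, 1.33 ± 0.14 and 1.58 ± 0.30 in quiescent cells (n = 5). Prl8a9, Myct1 and Krt19 passed the filter through the coculture arrays alone, as S100a8 did. For S100a10 they were Reln (0.922), Ddr2 (0.916) and Cavin3 (0.902). Ddr2 encodes a collagen receptor and Cavin3 a caveolar coat protein.

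For S100a4 the closest genes were Met (r = 0.926), Cpe (0.883) and Afp (0.875), and for S100a6 Cpe (0.955), Rbm45 (0.917) and Plpp1 (0.912). Afp, the fetal liver gene, averaged 3.03 ± 0.52 after ligation and 7.51 ± 1.28 after CCl4 (SD, n = 3 each) and is also among the 13 genes called between the injuries. Met and Afp reached log2 5 on CCl4 arrays alone and entered the tests through them, so the Afp call supports nothing by itself. For S100a16 they were Slc4a4 (0.968), the matrix cross-linking enzyme gene Loxl1 (0.958) and the keratin gene Krt8 (0.951). Krt8 averaged 6.70 ± 0.75 after ligation and 7.78 ± 1.54 after CCl4 (n = 3 each), against 1.89 ± 0.21 in quiescent cells (n = 5). Slc4a4, Loxl1 and Krt8 passed the filter through injury arrays alone, as S100a16 did.

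For S100a1 the closest were Retreg1 (r = 0.954), Znf41-ps (0.954) and the junction gene F11r (0.947), and for S100a13 Aplp2 (0.952), Shisa2 (0.944) and Cst3 (0.943). Among the members themselves S100a8 and S100a10 ran opposite to each other at r = -0.83, and S100a13 and S100a4 were close to unrelated at r = -0.09. With 5 groups behind 16 arrays, such values mostly describe the order of the group means.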

How the data were processed

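Stellate cell RNA of 16 samples was labelled with biotin and hybridised to 1 oligonucleotide array each, per the labels' protocols. The authors deposited log2 expression values per probe set. The submitters' processing notes name GCRMA, which subtracts a background modelled on probe sequence and makes the arrays' distributions alike, and its version is not given in the sources used here. The table holds 45101 probe sets with 0 gaps, and every value column belongs to a sample. Of the probe sets, 34945 carry 1 gene symbol, and the 932 with several were left out. A gene was tested if 2 or more arrays reached log2 5. Group means of the 5 groups came from 1 limma fit on the 16 arrays (limma 3.58.1, R 4.3.3, lmFit, then eBayes with a trend). Its 10 pairwise contrasts were two-sided, and p-values were adjusted by Benjamini-Hochberg over the 7823 tested genes. The code was tested on simulated data. The number of arrays limits the precision, and the labels give no slide or scan batch. The members, gene lists and tests were chosen with earlier results of these data known. The text names all members, the partner, receptor and neighbour genes called in a coculture comparison, Anxa1, Anxa2, Anxa6, Ager and Tlr4 in any case, markers, and the 3 genes most correlated with each tested member. Alternatives were other filters, probe sets, scaling, variance models, array weights, a replicate block, smaller fits and arrays left out.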

Additional observations from a re-analysis of the deposited data

Results flagged for a closer look

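Among the 5 quiescent arrays S100a16 read 2.39 on replicate 1, below the other 4, which lay between 2.99 and 3.08, and the gap was wide for the range of the group. Of 8 S100 genes looked at in this group, 1 stood out in this way, and chance alone sets apart about 1 group in 20. All 5 values are near background. Without this array S100a16 was still called after ligation and after CCl4.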

How the results depend on the processing

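Over 26 alternative settings the 70 differences of the 7 tested S100 genes gave 1800 values, of which 20 lost the call, 14 gained it and 0 called ones changed sign. No count of S100 genes called moved by over 1.5 times. With single arrays left out or under any other setting the count was 2 in coculture against culture and 1 in ligation against CCl4, 5 to 6 in coculture, 3 to 5 in culture, 3 to 4 after ligation and 3 to 5 after CCl4 against quiescent cells, and 6 to 7 over the 5 groups. S100a8 in coculture against culture ranged from 6.94 to 9.29, and S100a4 in ligation against CCl4 from -3.54 to -2.91. Beyond the calls given with their arrays above, the S100a6 call in culture against CCl4 was lost with no filter (adjusted p = 0.0602, limma) and without the trend (adjusted p = 0.0573), and S100a1 after CCl4 was called with array weights (0.66). S100a6 was called lower in coculture than after CCl4 with each array centred (-0.91, adjusted p = 0.0401) and with both groups alone (adjusted p = 0.00852), and lower than after ligation with both groups alone (adjusted p = 0.0476). The S100a10 call in culture against ligation was lost with no filter (adjusted p = 0.0513) and that against CCl4 with the mean of all probe sets (0.43, adjusted p = 0.126). With 3 arrays left out at once, a setting chosen after seeing the data, culture against CCl4 lost the S100a6 call (-0.58) and the S100a10 call (0.40), and culture against ligation the S100a10 call (0.43). Counts over all genes moved more. Ligation against CCl4 gave 13 genes, but 43 with no filter, 4 with the filter at log2 7, 160 with array weights, 20 with the mean of all probe sets, 31 with second probe sets, 40 with both groups alone and 4 to 20 with single arrays left out. Without ligation replicate 1, 784 genes were called after ligation in place of 1319, and without CCl4 replicate 1, 878 after CCl4 in place of 1719. Without coculture replicate 2 or 3, 2014 or 1862 were called against quiescent cells in place of 3031. Coculture against culture gave 446 without coculture replicate 2 and 601 with both groups alone, in place of 1205. Without coculture replicate 3, 1196 were called against ligation in place of 2314 and 699 against CCl4 in place of 1716, and 1069 against CCl4 without CCl4 replicate 3. Deviations of same-numbered arrays from their group means correlated at r = -0.26 to 0.54 over 26 pairs, 7 of them over 0.1, and 5 of 16 arrays were closest to their own number. Quiescent replicates 4 and 5 have no array of their number in another group and could not match. The title of quiescent replicate 3 ends in X, where the other quiescent titles end in a number. Its number was taken from the start of the title. Culture and coculture deviated together in both pairs they share (0.31 for replicate 2 and 0.54 for replicate 3), and quiescent replicate 3 followed both (0.28 and 0.21) but replicate 2 neither (-0.22 and -0.05), so with 2 pairs the numbers were not taken as pairs. The 2 coculture arrays deviate from their mean by equal and opposite amounts, so these 2 pairs are not independent. With a replicate block the counts of S100 genes called were 6 in coculture, 4 in culture, 4 after ligation and 4 after CCl4 against quiescent cells, 2 in coculture against culture and 1 in ligation against CCl4, and it changed no call of an S100 gene. Among the other named genes it ended the calls of Egfr after ligation (0.75, adjusted p = 0.0713) and Alcam after CCl4 (0.95, adjusted p = 0.0597) and added Iqgap1 in culture (-0.75, adjusted p = 0.0109). The other named genes gave 1992 values over 78 differences, 61 losing and 35 gaining the call, under settings chosen after seeing the data. Leaving out 3 arrays at once (CCl4 replicate 3, culture replicate 3 and quiescent replicate 4) gave 8 genes in ligation against CCl4. S100a1 had no second probe set that passed the filter, and S100a16 did not pass the filter at log2 7. S100a9 gave no result in the filtered fits.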
